A study of Rattus norvegicus with 12 samples.

Results

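The kinetochore is the protein assembly that ties a chromosome to the mitotic spindle, and the spindle checkpoint is the signal that holds a cell in mitosis until every kinetochore is attached. A list of 38 genes of both was followed, and the array had a usable row for 32 of them, among 18166 genes with such a row. A row was used where its annotation named 1 gene symbol and that symbol, or a former symbol of the same Entrez gene, was on the list, and no gene on the list had more than 1 such row. Cenpe, Cenpo, Spc24, Birc5, Zwilch and Nsl1 had none and were not analysed here. The list groups genes by function and was drawn up with earlier results of these data known. All 32 genes lay above the low-signal limit of 5.83 (log2, the mean over the 12 arrays) and were among the 13636 genes tested.

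The cells were skin-derived precursors (SKPs), dermal precursor cells that grow as floating spheres, from newborn Sprague-Dawley rats. After spheres had been taken apart, cultures were kept for 24 h with vehicle, with alprostadil, with trimebutine maleate, or with trimebutine maleate and trametinib together, each drug at 100 nM, in medium with the growth factors FGF2 and EGF. Trametinib blocks MEK, the kinase upstream of ERK in growth factor signalling. Alprostadil is the drug name of prostaglandin E1, and trimebutine, a drug used for bowel disorders, binds opioid receptors. Each of the 4 groups had 3 arrays. The study used 3 independent isolates of cells, and the replicate number of an array is read here as its isolate. Trametinib was always given with trimebutine, so no group shows trametinib alone. Values are the authors' log2 expression values. Differences are between group means on that scale, with the standard error (SE) or the 95% confidence interval of the fit and n = 3 arrays per group, and a gene passed at a limma adjusted p under 0.05 over all genes tested.

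A chromosome carries its kinetochore at the centromere, which is marked by nucleosomes with the histone variant CENP-A. On these sits an inner layer of CENP proteins, and on that an outer layer, the KNL1, MIS12 and NDC80 complexes, whose NDC80 part grips the microtubule. Kinetochores without a microtubule recruit the checkpoint kinases and the MAD and BUB proteins, which together block the anaphase-promoting complex. Aurora B, as part of the chromosomal passenger complex, releases wrong attachments, and shugoshins keep sister chromatids together at the centromere. Many of these genes are transcribed mainly in late S phase, G2 and mitosis, so that their RNA in a culture is widely read as a mark of dividing cells.

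The 11 dermal precursor markers with a row (of 12 listed) all had vehicle means above the low-signal limit, from 6.28 for Twist1 to 13.5 for Vim. All 7 macrophage and leukocyte markers were above it too, as were all measured keratinocyte (4), Schwann (3) and adipocyte (3) markers. Of the melanocyte markers 2 of 5 were above it, and of the endothelial markers 1 of 2. Of all 18166 genes with a row, 13636 passed this limit by their mean over the 12 arrays. Being above it therefore does not identify a cell type. Array medians ran from 6.409 to 6.505 over the 36685 features, and the number of arrays limits the precision.

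With trametinib added to trimebutine, RNA of nearly all measured kinetochore genes was lower. Of the 32 genes, 30 fell, none rose, and Cenpw and Zw10 did not pass, where 16.6% of all genes tested fell and 16.8% rose (33.4% in all). The median of the 32 differences was −1.55, a 2.94-fold lower level, beside a median of 0.03 over all genes tested. In 30 of the 32 genes every array with trametinib lay below every array with trimebutine alone, as was so for 21.8% of all genes tested. With the replicate number as a block 31 fell, where 20.8% of all genes tested fell and 21.2% rose in that fit (42% in all). Of the 100 genes with the largest falls on the array, 12 were among these 32. Sgo2, Cenpq, Cenpu and Ska1 were among the 12 and had trametinib arrays under the low-signal limit, so their places are uncertain. In bulk RNA, fewer dividing cells and less of this RNA in each cell cannot be told apart.

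**Figure D1:**
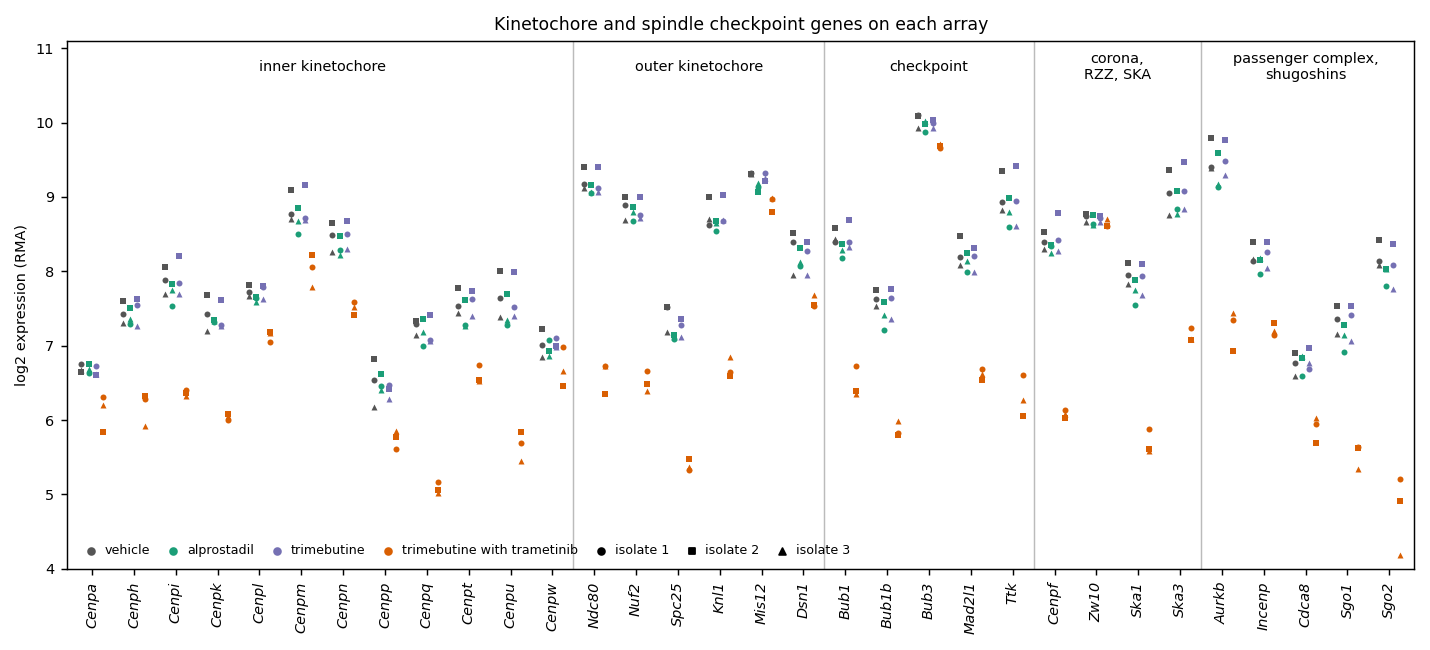
Log2 expression of the 32 genes on each of the 12 arrays, ordered by role, with colours for the 4 groups and marker shapes for the 3 isolates. The arrays of trimebutine with trametinib lie apart below those of trimebutine alone for 30 genes and overlap them for Cenpw and Zw10.

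Against vehicle the same group gave the same counts, 30 lower, none higher and 2 that did not pass (17.5% of all genes tested were lower and 17.5% higher, 35% in all), with a median of −1.57. The groups did not overlap in 30 genes, as in 22.3% of all genes tested, and 31 were lower with the replicate block (21.1% of all genes tested lower and 22.1% higher, 43.2% in all). Both comparisons use the arrays with trametinib, so the second is not independent of the first. The falls differed widely in size, from −3.30 for Sgo2 to −0.31 for Bub3 against trimebutine. On the arrays with trametinib 9 genes had a value under the low-signal limit, and Cenpq, Spc25, Sgo1 and Sgo2 had all 3 there. No array of the other groups had such a value. Whether the falls of these genes are understated was not tested.

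**Figure D2:**
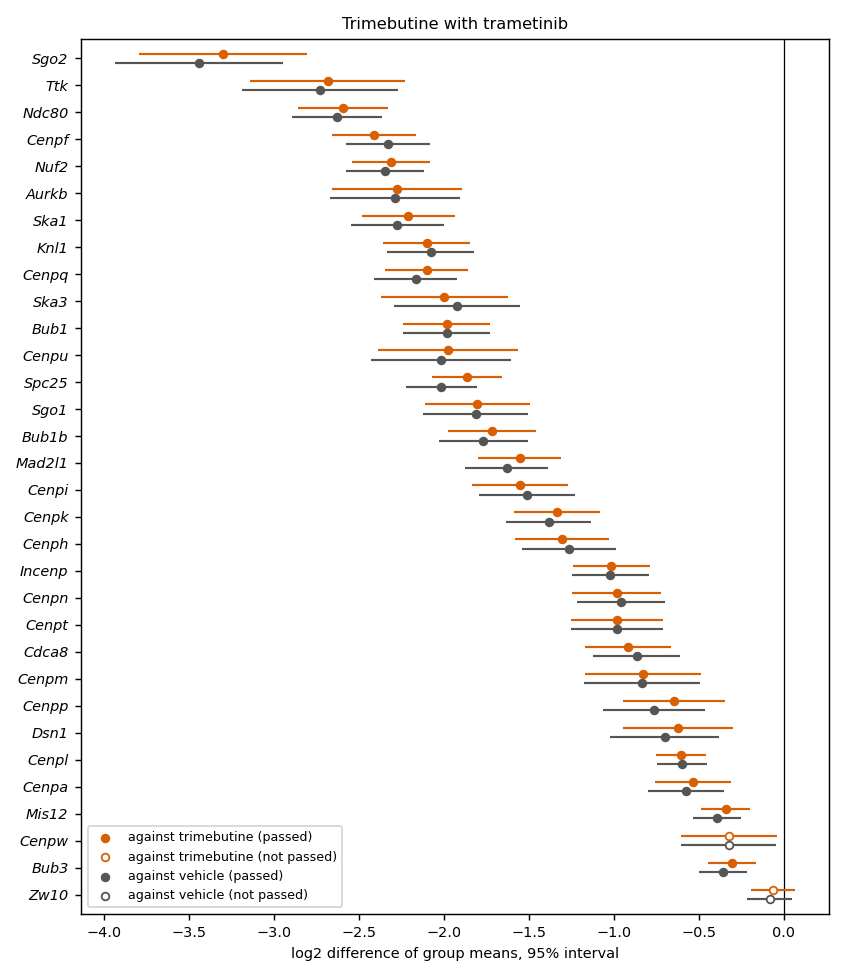
Log2 difference of group means with its 95% interval for each of the 32 genes, for trimebutine with trametinib against trimebutine alone (orange) and against vehicle (grey). Filled points passed at an adjusted p under 0.05, and Cenpw and Zw10 are the open points.

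Because so many of these genes moved together, their promoters were searched for motifs known from cell cycle genes. The sequences came from the RefSeq promoter table for the GRCr8 build (250 bases before and 50 after each annotated start), which matched 27 of the 32 genes. Aurkb, Cenpt, Incenp, Sgo2 and Zw10 had no entry. The cell cycle genes homology region (CHR), letters TTTGAA, is a site through which the DREAM and B-MYB complexes act on genes of G2 and mitosis. Searched on both strands, it was in 14 of the 27 promoters (51.9%), in 12.3% of the 11080 promoters of genes tested and in 18.1% of 27457 promoters of all genes. In the last 100 bases, from 50 before to 50 after the start, 11 of the 27 (40.7%) held it, beside 3.14% of the promoters of genes tested and 5.02% of all. The motifs and that window were chosen after the values were seen. Cenpq (−2.10), Ska3 (−2.00), Bub1 (−1.98) and Cenpu (−1.98) fell by more than 1.87 and lack the CHR. Ska1 (−2.21) holds it and is not shown. The stretches below show the CHR in 6 of the genes that fell by 1.87 or more, and in Cenpw, which did not pass. Each is 30 bases long, written 5′ to 3′ along the gene, with the CHR in capitals (TTCAAA where it lies on the other strand).
Ttk: gcagcggggaaaTTCAAAcgtgtttccgga
Ndc80: ggaaattttaaaaTTCAAAccgcccaaggt
Cenpf: ggccgcgggcagTTTGAAtcgctcgtgctg
Nuf2: aaaggcggctggTTTGAAaagtgacaacgg
Knl1: cagaaaaacgttTTCAAAaatggatgggat
Spc25: ggcgctccggagTTTGAAattgaaagtcgg
Cenpw: actggcggcagaTTCAAAtcaaccgctctg

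These stretches lie at chr8:93634631-93634660 on the plus strand for Ttk, chr9:118887480-118887509 on the minus strand for Ndc80 and chr13:103760867-103760896 on the minus strand for Cenpf. Those of Nuf2 and Knl1 lie at chr13:84255552-84255581 on the minus strand and at chr3:126490947-126490976 on the plus strand. The stretch of Spc25 is at chr3:74396758-74396787 on the minus strand, and that of Cenpw at chr1:29353962-29353991 on the plus strand. Counted from 1 at the start, the first base of the motif was base 3 in Cenpf, 5 in Ttk and Cenpw, 30 in Nuf2 and 34 in Ndc80. It was base −7 in Knl1 and −57 in Spc25, counted back from the start. The 14 genes with a CHR had a median difference of −1.79 with trametinib added (from −2.69 to −0.32), and the 13 without had −1.31 (from −2.10 to −0.31). These ranges overlap, and Cenpw holds the motif at the same distance and strand as Ttk. Such a match describes the letters only.

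**Figure D3:**
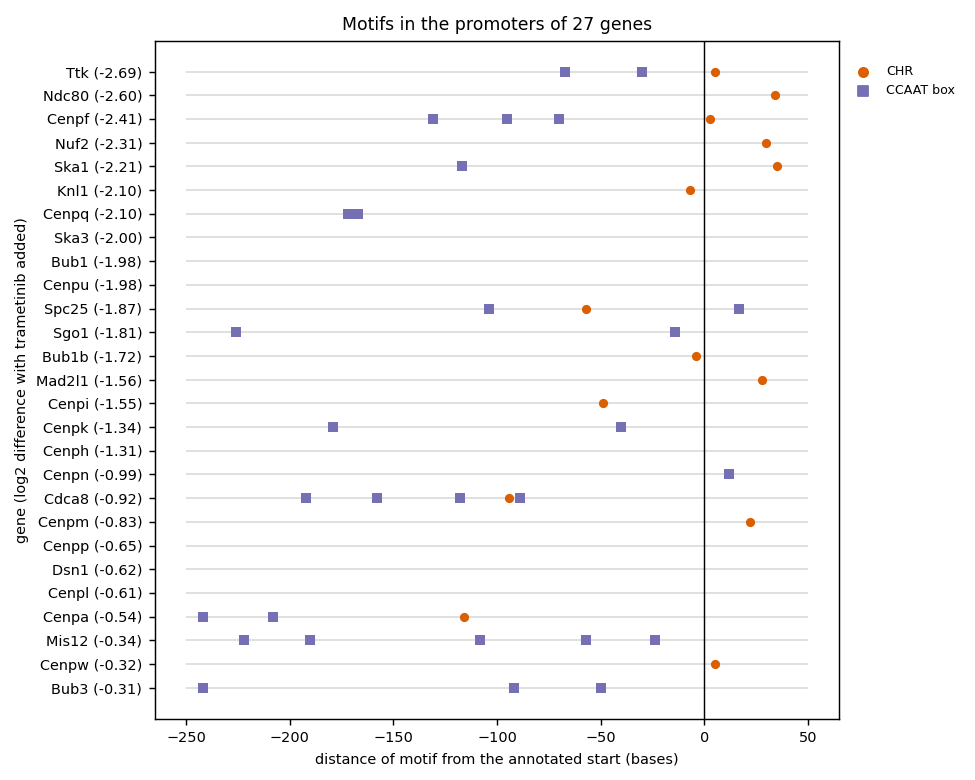
Positions of the CHR (orange circles) and of CCAAT boxes (purple squares) in the promoters of 27 genes, in bases from the annotated start, with genes ordered by their log2 difference when trametinib was added. CHR motifs lie close to the start in most genes that hold them and occur at both ends of the order.

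CCAAT boxes, letters CCAAT on either strand, which the factor NF-Y binds, were in 12 of the 27 promoters (44.4%) and in 37.3% of those of genes tested (37.7% of all). In the last 100 bases, 7 of the 27 (25.9%) held one, beside 10.4% of the promoters of genes tested and 12.5% of all. That window was chosen after the values were seen. An E2F site, searched on both strands as TTTCCCGC, TTTCGCGC, TTTGCCGC or TTTGGCGC, was in 0 of the 27, and in 3.75% of the promoters of genes tested (2.25% of all). No motif searched holds another, and in Cdca8 a CHR and a CCAAT box share a base. The 250 bases before the start are given for Ttk and Ndc80, which had the largest falls among genes with an entry, and for Cenpw. Capitals mark CCAAT boxes, of which Ttk has 2. Ndc80 and Cenpw have none in this stretch. They lie at chr8:93634389-93634638 on the plus strand for Ttk, chr9:118887530-118887779 on the minus strand for Ndc80 and chr1:29353720-29353969 on the plus strand for Cenpw.
Ttk: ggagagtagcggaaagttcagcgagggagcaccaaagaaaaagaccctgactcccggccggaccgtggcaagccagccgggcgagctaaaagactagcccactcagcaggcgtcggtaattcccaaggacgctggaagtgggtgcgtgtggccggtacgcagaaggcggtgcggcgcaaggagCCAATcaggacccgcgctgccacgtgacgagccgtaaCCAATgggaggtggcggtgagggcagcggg
Ndc80: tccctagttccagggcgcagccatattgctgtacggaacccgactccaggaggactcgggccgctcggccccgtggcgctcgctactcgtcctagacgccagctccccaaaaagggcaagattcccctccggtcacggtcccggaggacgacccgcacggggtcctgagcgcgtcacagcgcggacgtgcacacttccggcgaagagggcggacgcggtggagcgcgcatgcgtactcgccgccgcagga
Cenpw: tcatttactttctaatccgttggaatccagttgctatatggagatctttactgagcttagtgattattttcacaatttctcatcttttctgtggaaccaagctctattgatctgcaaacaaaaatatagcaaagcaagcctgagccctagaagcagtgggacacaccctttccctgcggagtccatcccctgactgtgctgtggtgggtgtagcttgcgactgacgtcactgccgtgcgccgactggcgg

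Of the 32 genes, 12 were of the inner kinetochore, and 11 of these fell when trametinib was added (median −0.98), and 12 of 12 with the replicate block. Cenpa, the gene of the centromeric histone variant that marks where a kinetochore forms, read 6.72, 6.61 and 6.62 on the trimebutine arrays of isolates 1, 2 and 3 and 6.30, 5.83 and 6.20 with trametinib. It fell by 0.54 (SE 0.10, adjusted p = 0.00173). The groups did not overlap, and this was among the smaller falls. The vehicle mean was 6.69 ± 0.06 (SD, n = 3).

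Among the CENP-H, I, K and M genes, which form 1 subcomplex of the inner layer, Cenpi fell the most. Its values were 7.84, 8.21 and 7.70 with trimebutine and 6.40, 6.36 and 6.33 with trametinib added, a difference of −1.55 (adjusted p = 4e-06). Cenpk fell by 1.34, Cenph by 1.31 and Cenpm by 0.83 (adjusted p = 0.00164). In the fit without the replicate block, the intervals of Cenpi (−1.84 to −1.27) and Cenpm (−1.17 to −0.49) did not overlap. Those of the other pairs in this subcomplex did overlap in that fit. With the block, the intervals of Cenph and Cenpk lay apart from that of Cenpm as well.

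The CENP-O, P, Q and U proteins make another subcomplex, which takes part in recruiting the kinase PLK1. Cenpq read 7.08, 7.41 and 7.07 with trimebutine and 5.17, 5.06 and 5.02 with trametinib, and fell 4.3-fold (adjusted p = 1.4e-07). Cenpu fell by 1.98, with an interval of −2.39 to −1.56. Cenpp, their partner, fell by 0.65 (interval −0.95 to −0.35, adjusted p = 0.00338). With trametinib all 3 arrays of Cenpq and some of Cenpu and Cenpp were under the low-signal limit, so these falls are not ranked. Without isolate 1 in all groups, Cenpp did not pass (difference −0.54, adjusted p = 0.0852).

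Cenpn, whose product reads the CENP-A nucleosome, and its partner Cenpl fell by 0.99 and 0.61. The histone-fold proteins CENP-T and CENP-W bind DNA together and reach out to the NDC80 complex, and their genes differed. Cenpt fell by 0.98 (interval −1.25 to −0.71, adjusted p = 8.76e-05). Cenpw read 7.11, 6.99 and 6.98 with trimebutine and 6.98, 6.46 and 6.66 with trametinib. The array of isolate 1 with trametinib lay within the trimebutine range, and the other 2 lay below it. Its difference of −0.32 (interval −0.60 to −0.04) did not pass (adjusted p = 0.0748). It passed with the replicate block (adjusted p = 0.0347), and without the trametinib array of isolate 1 (difference −0.46, adjusted p = 0.0110).

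In the outer kinetochore all 6 genes among the 32 fell (median −1.98). Among those with no array under the low-signal limit, Ndc80 and Nuf2 fell the most. Both are genes of the NDC80 complex, which holds the microtubule end. Ndc80 had log2 values of 9.18, 9.40 and 9.12 with vehicle, 9.06, 9.16 and 9.07 with alprostadil and 9.12, 9.41 and 9.06 with trimebutine. With trametinib added it had 6.73, 6.35 and 6.72. The arrays of the first 3 groups lie between 9.06 and 9.41, and those with trametinib lie apart below them. Ndc80 fell by 2.60 (SE 0.12, adjusted p = 6.77e-08), or 6.05-fold. Nuf2, the gene of its coiled-coil partner, fell by 2.31 (adjusted p = 6.43e-08), from a mean of 8.82 ± 0.16 to 6.51 ± 0.13 (SD, n = 3). Spc25, which joins the complex to the inner layer, fell by 1.87 (interval −2.07 to −1.66). Its 3 trametinib values of 5.33, 5.47 and 5.37 were all under the low-signal limit, so its fall is not ranked against those of Ndc80 and Nuf2.

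Knl1, the gene of the scaffold that binds BUB proteins, fell by 2.10 (adjusted p = 1.87e-07), from 8.68, 9.02 and 8.69 to 6.65, 6.59 and 6.85. Mis12 and Dsn1, genes of the MIS12 complex, which links the layers, fell less than Knl1. Mis12 itself read 9.33, 9.21 and 9.25 with trimebutine and 8.98, 8.79 and 8.99 with trametinib, a difference of −0.34 (interval −0.49 to −0.20, adjusted p = 0.00173). Dsn1 fell by 0.62 (interval −0.94 to −0.30, adjusted p = 0.00649). The groups did not overlap in either gene. The intervals of Mis12 and Dsn1 lie apart from that of Knl1. Pmf1, of the MIS12 complex but outside the 32, fell by 0.92 (interval −1.17 to −0.67, adjusted p = 8.02e-05). Its interval lies apart from that of Mis12. Dsn1 did not pass without isolate 1 (difference −0.56, adjusted p = 0.0943) or without isolate 2 (−0.51, adjusted p = 0.0882) in all groups.

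All 5 spindle checkpoint genes among the 32 fell (median −1.72). Ttk, which encodes the kinase MPS1 that starts the checkpoint signal, read 8.93, 9.35 and 8.82 with vehicle and 8.95, 9.41 and 8.61 with trimebutine. With trametinib added it read 6.60, 6.05 and 6.26, a 6.43-fold fall (difference −2.69, SE 0.21, adjusted p = 2.34e-06). Isolate 2 had the highest Ttk value with vehicle and with trimebutine and the lowest with trametinib, and the difference in the 3 isolates was −2.35, −3.36 and −2.35.

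Bub1, the gene of a kinase that marks the centromere for shugoshin, fell by 1.98 (adjusted p = 2.78e-07). Bub1b, which encodes BUBR1, fell by 1.72 (adjusted p = 9.89e-07), and the intervals of both overlap. In Bub1b, 2 trametinib arrays were under the low-signal limit, so its fall is not ranked. Mad2l1, whose product MAD2 is the part of the checkpoint complex that seizes CDC20, read 8.20, 8.32 and 7.99 with trimebutine and 6.69, 6.53 and 6.62 with trametinib, a difference of −1.56 (adjusted p = 1.33e-06). Bub3, a partner of BUB1 and BUBR1 that other cell processes use as well, differed from these. Its mean was 9.99 ± 0.05 with trimebutine and 9.68 ± 0.03 with trametinib (SD, n = 3), and it fell 1.24-fold (interval −0.45 to −0.16, adjusted p = 0.00341). That interval is apart from those of Bub1 and Bub1b. Without isolate 2 in all groups Bub3 did not pass (difference −0.28, adjusted p = 0.0859).

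Of the 32 genes, 4 were of the fibrous corona and of the RZZ and SKA complexes, and 3 of these fell. Cenpf, a large coiled-coil protein of the corona, read 8.42, 8.79 and 8.27 with trimebutine and 6.13, 6.03 and 6.08 with trametinib, a 5.33-fold fall (adjusted p = 6.78e-08). Ska1 and Ska3, parts of the complex that follows a shrinking microtubule, fell by 2.21 and 2.00 (adjusted p = 2.3e-07 and 4.58e-06), with intervals that overlap. In Ska1, 2 trametinib arrays were under the low-signal limit, so its fall is not ranked. Ska2, of the same complex but outside the 32, fell by 0.46 (interval −0.68 to −0.24). Its interval lies apart from those of Ska1 and Ska3. Zw10, which brings dynein to the kinetochore and also works in traffic between the endoplasmic reticulum and the Golgi, had 8.75, 8.77 and 8.66 with vehicle, 8.71, 8.74 and 8.66 with trimebutine and 8.61, 8.61 and 8.70 with trametinib. These groups overlap. Its difference was −0.06 with an interval of −0.20 to 0.07 (adjusted p = 0.462), and −0.22 to 0.05 was the interval against vehicle. A fall larger than 0.20 lies outside the first interval.

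All 5 measured genes of the chromosomal passenger complex and the shugoshins fell (median −1.81). Aurkb, the gene of the complex's kinase Aurora B, read 9.40, 9.79 and 9.39 with vehicle, 9.49, 9.76 and 9.30 with trimebutine and 7.34, 6.93 and 7.44 with trametinib. It fell 4.85-fold (difference −2.28, interval −2.66 to −1.89, adjusted p = 2.03e-06). Incenp, the scaffold, and Cdca8, which encodes borealin, fell by 1.02 (interval −1.24 to −0.79) and 0.92 (interval −1.17 to −0.66). Both intervals lie apart from that of Aurkb, and 1 trametinib array of Cdca8 was under the low-signal limit.

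Sgo2 had the largest measured fall of the 32. It read 8.13, 8.43 and 8.08 with vehicle, 7.81, 8.03 and 8.03 with alprostadil and 8.08, 8.37 and 7.77 with trimebutine. With trametinib added it read 5.20, 4.91 and 4.19. Isolate 3 was the lowest of these, at a deviation of −0.58 from the group mean, the lowest deviation of any array in the 32 genes. Against trimebutine it fell by 3.30 (SE 0.22, adjusted p = 8.69e-07), or 9.87-fold. Sgo1, which protects cohesin in mitosis as Sgo2 does most of all in meiosis, fell by 1.81 (SE 0.14, adjusted p = 2.47e-06). All 3 trametinib arrays were under the low-signal limit in Sgo1 and in Sgo2. The sizes of both falls rest on values under that limit and are not compared further.

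With alprostadil alone no gene of this set passed the threshold. By limma 0 of the 32 were lower and 0 higher, where 0.066% of all genes tested were lower and 0.323% higher (0.389% in all). The replicate block gave 0 of 32 as well, with 0.711% of all genes tested lower and 1.17% higher (1.88% in all). Without the block, 2 genes had an unadjusted p under 0.05, where 6.97% of all genes tested did. These were Spc25 (−0.28, adjusted p = 0.457) and Mis12 (−0.19, adjusted p = 0.524). With the block, the intervals of Cenpm, Cenpt, Cenpu, Spc25, Bub1b, Sgo1, Mis12 and Ska1 lay wholly below 0. Those of the other genes of the set included 0. These intervals are not adjusted for the number of genes. How this compares with all genes in the block fit was not tested, so no effect on the named genes is read from it. The lowest adjusted p with the block was 0.0978, that of Spc25.

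The alprostadil values lay mostly to 1 side. The difference was below 0 for 30 of 32 genes, as for 54.6% of all genes tested, with a median of −0.14 beside −0.01. These genes moved together from isolate to isolate, so they do not count as independent results. Only Cenpa (0.00) and Cdca8 (0.01) were not below 0. Cenpl, Spc25, Bub1, Sgo2 and Mis12 had all 3 alprostadil arrays below all vehicle arrays, that is 5 of 32, where 6.19% of all genes tested did so. Spc25 read 7.51, 7.52 and 7.18 with vehicle and 7.09, 7.15 and 7.12 with alprostadil. This was seen in isolates 1 and 2, with medians of −0.22 in both and 31 and 30 genes below 0. Isolate 3 had a median of −0.02 and 18 genes below 0. Without the vehicle array of isolate 2 the median over the 32 genes was −0.05, and without that of isolate 3 it was −0.21. The 95% intervals reach from −0.75 to 0.28 over the 32 genes, so that a fall of the size seen with trametinib in Ndc80 or Ttk lies outside all of them.

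**Figure D4:**
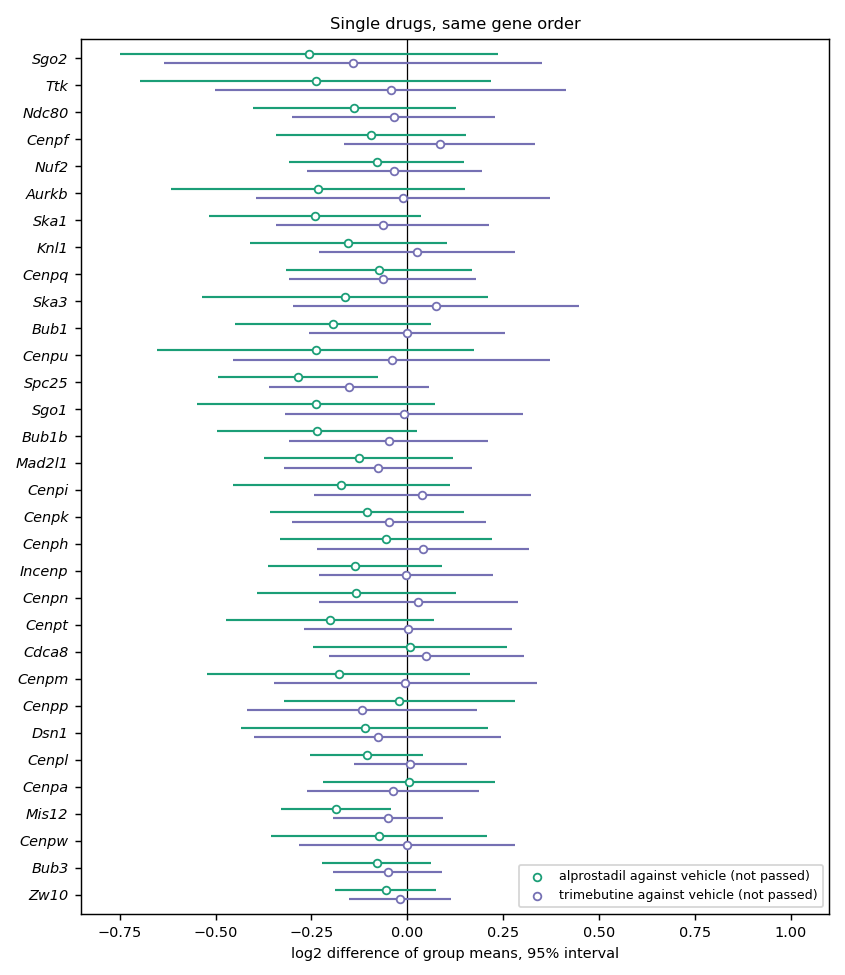
Log2 difference from vehicle with its 95% interval for alprostadil (green) and trimebutine (purple), with the 32 genes in the order of their falls with trametinib. All points are open, since none passed, and 30 of 32 alprostadil values and 23 of 32 trimebutine values are below 0.

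Trimebutine alone gave 0 of the 32 genes lower or higher by limma, with and without the replicate block. No gene on the array passed in either fit (0% of all genes tested), and none of the 32 had an unadjusted p under 0.05, where 1.05% of all genes tested did. The differences lay between −0.15 for Spc25 and 0.08 for Cenpf, with a median of −0.03 and 23 of 32 below 0 (51.1% of all genes tested). The median turned to 0.06 without the vehicle array of isolate 2 and also without the trimebutine array of isolate 3, so it has no settled direction. In each of the 32 genes the trimebutine arrays overlapped the vehicle arrays, while 2.06% of all genes tested had them apart and lower. The intervals ran from −0.63 to 0.45, with the lowest bound in Sgo2 and the highest in Ska3. For Mis12 and Bub3 they were narrower, −0.19 to 0.09 and −0.19 to 0.09. The intervals do not show that vehicle and trimebutine act alike, but they bound the difference.

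The isolates differed in these genes as well. Isolate 2 had the highest value of its group for 29 of 32 genes with vehicle, 27 with alprostadil and 28 with trimebutine, where its array was the highest for 31.3%, 32.2% and 31.0% of all genes tested. Isolate 3 had the lowest vehicle value for 28 genes and the lowest trimebutine value for 28. With alprostadil isolate 1 was the lowest for 23. With trametinib added this order was no longer seen, and isolate 2 was the highest for 7 genes and isolate 1 for 16. Ndc80 shows the pattern, since isolate 2 read the highest with vehicle and trimebutine and the lowest with trametinib.

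**Figure D5:**
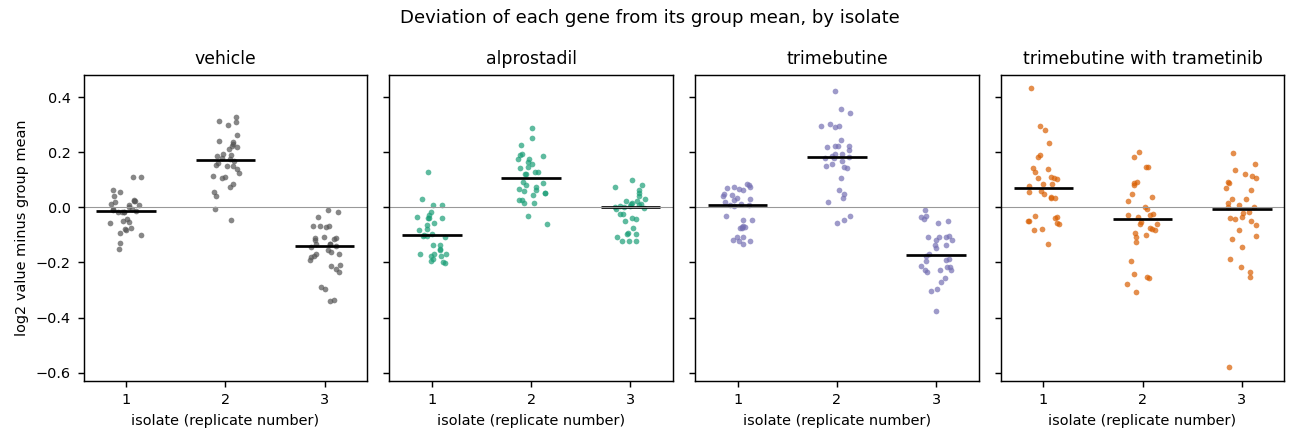
Log2 value minus the group mean for each of the 32 genes, by isolate, in the 4 groups, with black bars at the medians. Isolate 2 sits above 0 in the first 3 groups, with medians of 0.17, 0.11 and 0.19, and at −0.04 with trametinib.

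The fall with trametinib was the largest in isolate 2 for 26 of 32 genes (81.2%), beside 42.9% of the 2261 genes that fell on the array. The medians over the 32 genes were −1.47 in isolate 1, −1.82 in isolate 2 and −1.37 in isolate 3. Each fall is counted from the trimebutine value, which was the highest in isolate 2 for 28 of the 32 genes. These genes moved together from isolate to isolate, so they do not count as independent results. Whether isolate 2 responded more was not tested. Zw10 in isolate 3 (0.04) was the only difference above 0 in any isolate. Macrophage and leukocyte markers followed another order. Their summed level, on the log2 scale, was lowest in isolate 1 and highest in isolate 3 in every group, from 11.9 to 13.4 with vehicle, 11.8 to 13.6 with alprostadil, 11.8 to 13.5 with trimebutine and 11.3 to 13.0 with trametinib. When trametinib was added, 1 of these 7 markers fell (Cd68, by 1.03), none rose, and all 7 had group means above the low-signal limit. With the replicate block 3 of them were lower and 1 higher. Over all genes tested 16.6% were lower and 16.8% higher, and 20.8% and 21.2% with the block. The 3 adipocyte markers were lowest in isolate 1 and highest in isolate 3 in every group too, with log2 summed levels of 9.87, 10.97 and 11.78 with vehicle and 10.34, 11.58 and 11.98 with trametinib. When trametinib was added, their differences were 0.35 for Adipoq, 0.47 for Fabp4 and 0.62 for Plin1; none passed, and all 3 were higher with the block. Of the 11 dermal markers 2 were lower and 3 higher. The part of these cell types in the falls was not tested.

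Other genes of the same machinery were followed as lists, whose counts stand beside 16.6% of all genes tested lower and 16.8% higher (20.8% and 21.2% with the replicate block). Among 14 measured genes of the kinetochore and centromere outside the 32, 11 fell with trametinib added and none rose (median −0.73), and Cenpb, Cenpv and Mad2l1bp did not pass (genes that did not pass are named here after their values were seen). Oip5 (−2.49) and Hjurp (−1.81), which load CENP-A, fell, as did Kntc1 (−1.83), the third RZZ subunit gene, and Spdl1 (−0.90), a dynein adaptor gene. Of 15 mitotic kinases, cyclins and their regulators 14 fell (median −1.82), with Pbk (−3.05), Ccna2 (−2.51), Tpx2 (−2.25) and Gtse1 (−1.82) as examples. Pkmyt1 did not pass, and with the replicate block all 15 fell. All 6 proliferation markers fell, among them Top2a (−3.15), Rrm2 (−3.12), Mki67 (−2.91) and Pcna (−1.19).

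The target of the checkpoint is the anaphase-promoting complex. Of 19 genes of the complex and its regulators 6 fell, 1 rose and 12 did not pass (median −0.09), and the difference from other lists was not tested. Those with the largest falls were the ubiquitin-conjugating enzyme gene Ube2c (−1.79), the inhibitor gene Fbxo5 (−1.60) and the activator gene Cdc20 (−1.49), which MAD2 binds. The subunit gene Anapc16 rose (0.69). Among 9 phosphatase genes that act at kinetochores, 1 fell (Ppp2r5d, −0.19) and 8 did not pass, with differences over the list from −0.20 to 0.11. With the replicate block 2 fell, so that the count is near the share over all genes tested. Of 7 condensin genes 6 fell (median −1.07), such as Smc2 (−1.45) and Ncapg (−2.33).

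Of 13 genes of cohesin, separase and securin 10 fell (median −0.28), led by the acetyltransferase gene Esco2 (−2.73) and the securin gene Pttg1 (−1.58). The cohesin subunit genes Smc3 (−0.76) and Rad21 (−0.54) fell less. Among 16 genes of DREAM, B-MYB, FOXM1 and the E2F family, the regulators that act at CHR and E2F sites, 12 fell and none rose (median −0.53), with Foxm1 (−1.40), E2f8 (−1.44), E2f7 (−1.20) and Rbl1 (−0.96) named by their p-values. E2f4, E2f5, Lin52 and Lin54 did not pass. Of 7 housekeeping genes 2 fell and 1 rose, by at most 0.28, which is also near that share. By limma 0 genes of these lists passed for alprostadil or for trimebutine, with 1 and 0 of 106 at an unadjusted p under 0.05.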

How the data were processed

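RNA was read on 1-colour arrays. The authors deposited log2 values, for which the submitters' processing notes name oligo and RMA, with versions not given in the sources used here. RMA scales arrays to each other, so a shift in overall RNA content may not show. Symbols came from the platform annotation, with Entrez identifiers looked up in the GRCr8 table (18394 of 18511 features with 1 symbol), with the brightest row per gene. Genes with a mean under the 25th percentile (5.83) were left out. One limma model (limma 3.58.1, R 4.3.3; lmFit, contrasts.fit, eBayes) took all 12 arrays, 1 mean for each group, two-sided, with Benjamini-Hochberg adjustment over 13636 genes per comparison. The 18 pairs of arrays with the same replicate number had correlated deviations from the group means (r 0.21 to 0.81; the other 36 pairs −0.71 to 0.10). The number is therefore read as the isolate, since the design text speaks of separate isolates, and pairs the samples. The main fit does not use this pairing, so its p-values measure the spread between cultures with the differences between isolates included. The replicate block takes those differences out. The median SE over the 32 genes was 0.118 in the main fit and 0.094 with the block. The members and lists were chosen with earlier results of these data known. Named beside the 32 genes were up to 4 genes per list with the smallest p for trametinib added. Ska2 and Pmf1 were named as well, after their values were seen. In simulated data for that comparison (13636 genes), 70% of 50 genes changed by 0.5 were recovered and 94% of those changed by 1, with 10 false among 191 calls. The simulated arrays had independent noise with no isolate effect, and far fewer genes were changed than passed in the data. These rates need not hold for the data. Alternatives were a replicate block, other low-signal filters, the mean of a gene's rows, median centring, the arrays of both groups only, eBayes with trend, each array left out and, added after the data were seen, each isolate left out.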

Additional observations from a re-analysis of the deposited data

How the results depend on the processing

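For trametinib added to trimebutine, 27 of the 32 genes fell in every alternative in which they were tested; the others were Cenpp, Dsn1, Bub3, Cenpw and Zw10. Leaving out an array gave 30 to 31 genes lower, with medians from −1.65 to −1.44, and leaving out an isolate 28 to 30, with medians from −1.64 to −1.42. Against vehicle these were 30 to 31 (−1.66 to −1.47) and 28 to 30 (−1.65 to −1.45). With the replicate block 31 were lower in both. The block ended no call and added that of Cenpw. Under the stricter filter 24 of the 32 were tested and 23 were lower. Centring arrays on the median gave a median of −1.51. Over all genes, the counts without isolate 2 in all groups were 1250 lower and 1158 higher against trimebutine and 1299 and 1153 against vehicle; with 1 isolate less the fit has fewer arrays. For alprostadil, counts over all genes were 97 lower and 160 higher with the block (main values 9 and 44), 4 and 25 with the arrays of both groups only, 14 lower with the trend, 3 to 4 lower and 27 to 39 higher without an array, and 3 and 21, 0 and 0, and 1 and 17 without isolate 1, 2 or 3. None of the 32 passed in any of these. Their median ran from −0.21 to −0.05 without an array for alprostadil, and from −0.11 to 0.06, with a change of sign, for trimebutine. No group has 4 or more arrays, so single outlying arrays were not tested.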
